A study of Morus alba with 4 samples.

Results

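Assembled loci with more than 1 transcript were examined in mature leaf of the Indian mulberry genotype Dudia white (Morus alba) for the balance between their transcripts under drought and full watering. They number 397 loci with 926 rows, out of 5130 assembled loci with 6251 rows. An assembled row is a transcript that carries an MSTRG identifier, of the kind a transcript assembler gives, and its locus is the identifier without its last number. The members were chosen by their level: rows whose mean over the 4 libraries lay from 100 to under 100000 were kept, rows with the same 4 values within a locus were counted once, and loci with at least 2 rows left were taken. The rule takes the mean over all libraries and no difference between treatments, but 24 rows reached it through one group only: 13 had a mean under 100 in drought and 11 in well-watered leaf.

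The drought group was 2 leaf samples of plants held at 40% of the soil's field capacity, and the well-watered group 2 leaf samples of plants held at 100%. Field capacity is the water a soil holds after draining. All plants were of the same genotype, grew as bushes in pots of about 30 kg and were kept at their water level for 14 days before total RNA was taken from the leaf. The samples are described by the submitters as biological replicates. The labelled tissue, mesophyll, was not checked against marker genes here, because the files give identifiers without gene names. For the same reason no locus below has a known product.

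One gene can give several transcripts through alternative splicing, alternative start sites and alternative ends. In plants, retention of an intron is a common form of alternative splicing, and a transcript that keeps an intron often carries an early stop codon and may be degraded or held in the nucleus. Drought and the hormone abscisic acid are known to change splicing patterns in plants, partly through serine/arginine-rich proteins, which help select splice sites. The balance between transcripts of a locus can shift while its total stays level, and the total can change while the balance stays fixed, so both are given below.

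Each row's share is its value divided by the sum of the kept rows of its locus in the same library, in percent. A factor that scales a whole library cancels in a share. Shares here are shares of assigned reads and not of molecules. The sources used here do not give the counting settings, but many rows of a locus hold the same or nearly the same values, so a read can stand in more than 1 row. A stretch counted in every transcript of a locus draws the shares towards evenness. Strand use is not stated either, so reads of a gene on the opposite strand may be included. The values also take no account of transcript length. Within the level band, 383 rows were dropped because another row of their locus held the same 4 values, and 189 loci were lost because all their rows were identical. Predicted mRNAs or non-coding RNAs from RefSeq stand under other identifiers and are in no locus sum, although 154 member rows of 147 loci had exactly the 4 values of such an annotated row.

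Of the 397 loci, 313 had 2 rows, 62 had 3 and the rest 4 to 10. The median member row had a mean of 573. At the edges of the level band, MSTRG.9219.1 with a mean of 100.5 was inside and MSTRG.14104.1 with 99.75 outside, and MSTRG.7213.1 with 99712.5 was inside and MSTRG.9713.1 with 103084.5 outside. Only 11 further rows of the member loci lay below the band and 2 above it. The member rows summed to 2573759 and 2386137 in drought libraries 1 and 2 and to 2164183 and 2044273 in well-watered libraries 1 and 2. By the step estimated from the spacing of the values, a value of 100 stood for about 81.8 to 119 reads. No counting interval is given for a share, because the rows of a locus can share reads.

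Many of these loci were close to even. Among the 312 loci with 2 rows and shares in all libraries, the leading row (the one with the highest mean) held a median of 53.0% of the sum, and it held under 55% in 171 loci and under 51% in 118. Rows this alike in value may be mostly the same reads and then say little about balance. At the other end, the leading row held at least 75% in 27 loci and at least 90% in 3. The most uneven was MSTRG.11583, whose row MSTRG.11583.1 took 92.01% and 93.8% of the sum in the drought libraries and 92.7% and 90.4% in the well-watered libraries. In that locus the groups overlapped.

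The row shares of most loci differed little between drought and well-watered leaf. This is not a measure of stable transcript balance, because rows that hold mostly the same reads can hardly differ in share. The row that moved most in a locus moved by a median of 0.50 percentage points between the group means, with an upper quartile of 1.44 points. A row moved by at least 1 point in 133 loci, at least 5 points in 20 loci (5.05% of 396) and at least 10 points in 5. In all 20 loci with a move of 5 points or more, the drought libraries lay wholly above or wholly below the well-watered libraries. Choosing loci by the difference between group means favours such separation, so it is no support for the moves. Of the 133 loci with a move of at least 1 point, 98 had a moved row so separated. Over all loci the leading row was so separated in 152 (38.4%), 63 with the higher share in drought and 89 with the lower, a count given as a description with no test. One locus, MSTRG.11146, had no share in well-watered library 1, where both rows were at 0, and is left out of these counts.

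**Figure D1:**
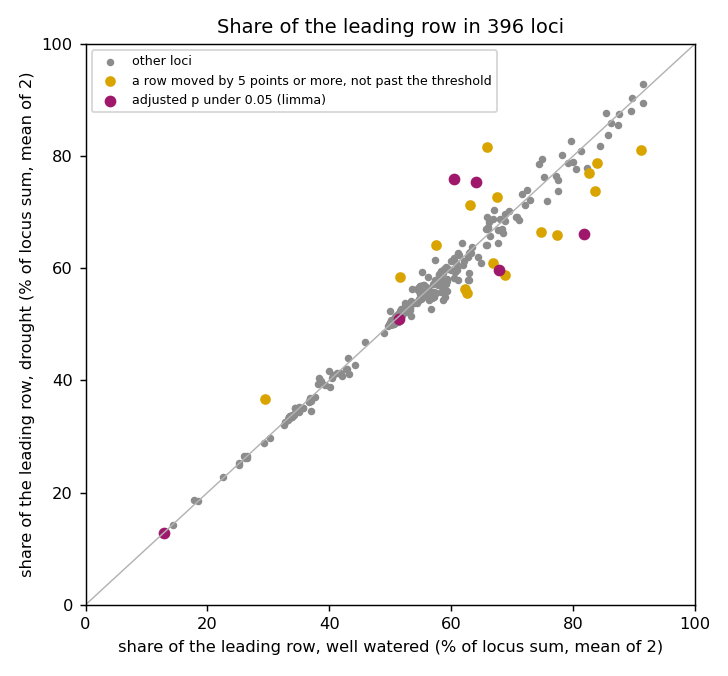
Share of the leading row in each of 396 loci, as the mean of the drought libraries (vertical, % of the locus sum) against the mean of the well-watered libraries (horizontal, % of the locus sum), with the line of equal shares. Most loci sit on the line, and 20 loci hold a row that moved by 5 points or more, of which 4 passed the threshold.

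The spread between libraries of a group sets what a move of a few points is worth. The share of the leading row differed by a median of 0.42 points between the drought libraries and 0.37 points between the well-watered libraries, against 0.37 to 0.55 points in the 4 pairs across treatments. For the median locus, libraries of different treatments were thus about as far apart as libraries of the same treatment. Large differences were counted more often across treatments. Leading rows at least 5 points apart numbered 18 to 35 in the cross-treatment pairs, 9 within drought and 4 within the well-watered pair. The pairs with drought library 2 had the more, 35 and 27 against well-watered libraries 1 and 2. Those with drought library 1 had 22 and 18. Some loci were far apart within a group. MSTRG.1474.1 held 73.2% and 84.1% in the drought libraries and 77.7% and 71.1% in the well-watered libraries, so its groups overlapped across a wide range.

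**Figure D2:**
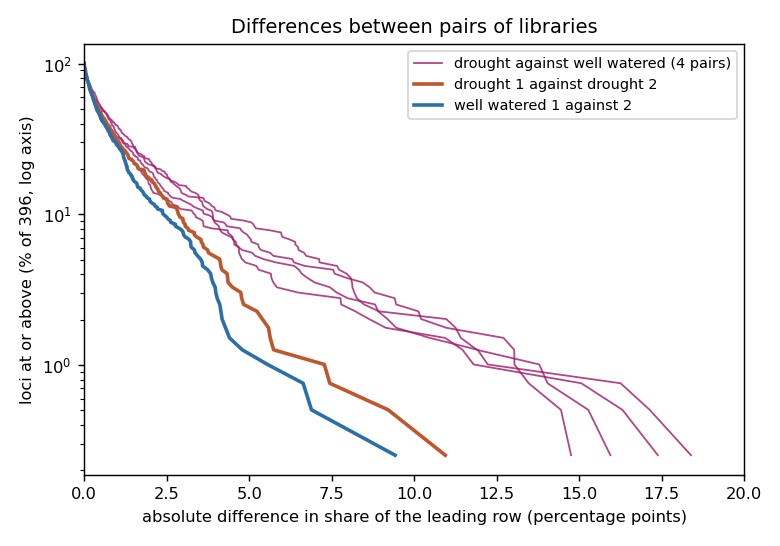
Percentage of 396 loci (vertical, log axis) whose leading row differs by at least the given number of percentage points (horizontal) between 2 libraries, for the 4 pairs across treatments and the pair within each group. The curves lie together at small differences and part at larger ones, with 18 to 35 loci at 5 points or more across treatments and 9 and 4 within drought and within well watered.

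Of the 397 loci, 6 (1.51%) had a row whose share changed at an adjusted p under 0.05. The test was limma on the log2 odds of the share, the row's value plus 1 over the sum of the other rows plus 1, with Benjamini-Hochberg adjustment across the 926 rows. At an unadjusted p under 0.05 there were 122 rows in 58 loci, where 46.3 rows would be expected if no share had changed. In a locus with 2 rows the shares mirror each other, so both rows have the same p and are 1 observation. The rows are thus not separate tests. The 6 calls are not firm: with no trend in the spread, with a robust spread estimate or against a minimum of 1.5-fold no locus passed, and limma's diffSplice called 1, MSTRG.4238. A fit without 1 library sets 1 library against 2 and has too little power to judge a call. In such fits the log2 odds change of MSTRG.4238.4 lay between -1.27 and -1.15 and that of MSTRG.1660.1 between 1.01 and 1.08. These ranges restate the spread within the groups, on which the calls themselves rest, and are no separate support. The lowest adjusted p was 0.0349. The 6 loci follow in the order of how far a row moved, with levels whose calls depend on the settings too. For rows of these loci and MSTRG.12999, refits of level with all libraries under other settings lost a call 34 times. They gained a call 20 times and left the outcome unchanged 90 times, which includes rows never called.

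MSTRG.4238 had the largest move. Its leading row MSTRG.4238.4 took 65.1% and 67.0% of the sum in the drought libraries and 82.2% and 81.4% in the well-watered libraries. The share fell by 15.8 points, and limma put the log2 odds change at -1.21 ± 0.06 (± standard error, adjusted p = 0.0385). The other rows of the locus, MSTRG.4238.2 and MSTRG.4238.3, had nearly the same values and may be mostly the same reads. MSTRG.4238.2 had values of 428 and 381 in the drought libraries against 163 and 171 in the well-watered libraries, a level 2.41-fold higher (log2 fold change 1.27, standard error 0.16, adjusted p = 0.0026). MSTRG.4238.4 itself had 1592 and 1525 in drought and 1501 and 1468 in well-watered leaf, with an adjusted p of 0.763 for its level. The shift thus came with more reads on the minor rows. The excess of MSTRG.4238.4 over MSTRG.4238.2, a lower bound on the normalized reads of the first that are not in the second, was 1164 and 1144 in drought against 1338 and 1297 in well-watered leaf.

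MSTRG.1660 was close behind, with the shift running towards its leading row. MSTRG.1660.1 held 76.1% and 75.8% of the sum in the drought libraries, against 59.9% and 61.1% in the well-watered libraries. Its share rose by 15.5 points, for a log2 odds change in limma of 1.05 ± 0.03 (standard error, adjusted p = 0.0349). The locus as a whole fell: its summed value was 5345 and 5045 in drought against 9348 and 8057 in well-watered leaf (log2 fold change -0.74, standard error 0.12, adjusted p = 0.00726). Both rows were lower in each drought library, but to different degrees. MSTRG.1660.2 had values of 1276 and 1220 in drought and 3751 and 3137 in well-watered leaf, a fall of 1.46 on the log2 scale (standard error 0.13, adjusted p = 0.000615), while MSTRG.1660.1 had 4069 and 3825 against 5597 and 4920 (log2 fold change -0.41, adjusted p = 0.0659). The excess of the first row over the second was 2793 and 2605 in drought, against 1846 and 1783 in well-watered leaf, so the gap between the rows was larger in both drought libraries although both rows were lower. The 4 values of MSTRG.1660.2 are those of the predicted mRNA XM_024177348.1, so this row and the annotated transcript cannot be told apart by value.

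MSTRG.7957 also moved towards its leading row. MSTRG.7957.2 took 76.0% and 74.7% of the sum in drought, against 63.7% and 64.5% in well-watered leaf, a rise of 11.2 points (log2 odds change 0.77, standard error 0.05, adjusted p = 0.0392, limma). In level the rows parted. MSTRG.7957.2 had 1027 and 1084 in drought against 580 and 585 in well-watered leaf, 1.81-fold higher (log2 fold change 0.86, standard error 0.12, adjusted p = 0.0048). MSTRG.7957.3 had 325 and 367 against 330 and 322, with an adjusted p of 0.795. The excess of the leading row over the other was 702 and 717 in the drought libraries and 250 and 263 in the well-watered libraries, 2.77 times as large in drought.

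MSTRG.6205 became more even. MSTRG.6205.1 held 60.3% and 59.2% of the sum in drought against 67.7% and 68.0% in well-watered leaf, and its share fell by 8.12 points (log2 odds change -0.51, standard error 0.03, adjusted p = 0.0385, limma). Its partner MSTRG.6205.2 had values of 539 and 637 in drought against 357 and 371 in well-watered leaf, 1.61-fold higher in level (log2 fold change 0.69, standard error 0.15, adjusted p = 0.0251). The leading row had 818 and 926 against 749 and 790 (adjusted p = 0.460). The excess of MSTRG.6205.1 was 279 and 289 in drought and 392 and 419 in well-watered leaf, so the gap between the rows was smaller in both drought libraries.

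MSTRG.7392 has a pair of abundant rows and 1 rare row. The locus rose 1.63-fold, with sums of 10073 and 11564 in drought against 6502 and 6744 in well-watered leaf (log2 fold change 0.70, standard error 0.12, adjusted p = 0.00818, limma). The rare row MSTRG.7392.6 had nearly the same values in all libraries, 224 and 251 in drought and 235 and 257 in well-watered leaf, with an adjusted p of 0.890 for its level. Its share fell, to 2.22% and 2.17% in drought against 3.61% and 3.81% in well-watered leaf (log2 odds change -0.78, standard error 0.04, adjusted p = 0.0385). MSTRG.7392.4 took 46.8% and 46.7% in drought against 44.9% and 44.8%, and this rise of 1.92 points also passed (adjusted p = 0.0385).

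MSTRG.3915, the locus with the most rows, passed on a difference of 0.28 points. MSTRG.3915.5 held 11.69% of the sum in both drought libraries, against 11.98% and 11.96% in the well-watered libraries, which limma gave as -0.04 ± 0.0021 in log2 odds (standard error, adjusted p = 0.0385), and MSTRG.3915.4 had almost the same values. The call rests on a very small spread of this share within the groups. On the arcsine scale it was lost (adjusted p = 0.0754). In level the locus varied widely within groups, and MSTRG.3915.3, its leading row, had 7469 and 20231 in the drought libraries and 6998 and 3099 in the well-watered libraries. Drought library 2 was the highest and well-watered library 2 the lowest, so the groups were separated only by a narrow gap. The level of the 10 rows did not pass (adjusted p of 0.0939 to 0.129), but all passed when predicted-mRNA totals or column totals set the scale. Predicted-mRNA totals divide drought library 1 by 1.17 and well-watered library 1 by 1.03. Column totals divide drought library 1 by 1.28. On both scales MSTRG.3915.3 is then lower in drought library 1 than in well-watered library 1, so its groups overlap. Those passes are therefore no support for a rise of this row, and why they arose was not tested.

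**Figure D3:**
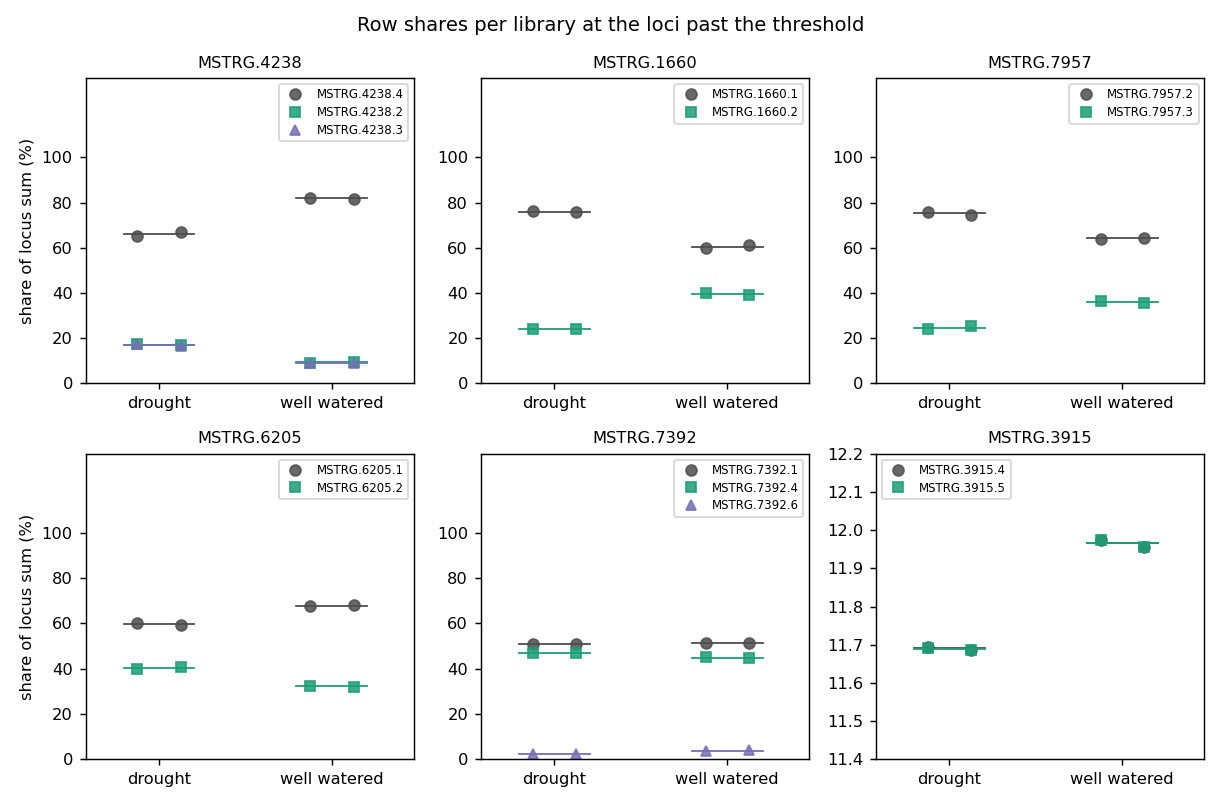
Share of the locus sum (%) of the rows at the 6 loci past the threshold, 1 point per library with drought left of well watered and a line at each group mean; for MSTRG.3915 the 2 rows past the threshold are shown on a narrow axis that does not start at 0. MSTRG.4238, MSTRG.1660 and MSTRG.7957 moved by 15.8, 15.5 and 11.2 points, and MSTRG.3915 by 0.28 points.

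Another 16 loci moved by 5 points or more and did not pass the test. They were picked knowing their values and carry no test beyond the fit. MSTRG.11598.2 held 83.7% and 79.4% of the sum in drought against 65.3% and 66.3% in well-watered leaf, 15.7 points apart in the mean (log2 odds change 1.21, standard error 0.18, adjusted p = 0.156, limma). Its groups lay far apart, with the drought libraries more spread than the well-watered libraries. The partner MSTRG.11598.3 had 555 and 485 in drought against 896 and 798 in well-watered leaf, a fall of 0.70 on the log2 scale (standard error 0.14, adjusted p = 0.0188), while MSTRG.11598.2 had 2855 and 1867 against 1689 and 1573 (adjusted p = 0.151). MSTRG.7267.1 went the other way, with 68.1% and 63.7% in drought and 77.5% and 77.2% in well-watered leaf (adjusted p = 0.155). There the minor row MSTRG.7267.4 had 744 and 677 in drought against 307 and 328, 2.23-fold higher in level (adjusted p = 0.0021).

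MSTRG.12999 was the only one of the 397 loci with a row called higher and another called lower in level. MSTRG.12999.3, which has the 4 values of the predicted mRNA XM_010112791.2, had 578 and 470 in drought against 357 and 285 in well-watered leaf (log2 fold change 0.71, standard error 0.18, adjusted p = 0.0437, limma). MSTRG.12999.1 had 2309 and 2196 in drought against 3380 and 3181 in well-watered leaf (log2 fold change -0.54, standard error 0.11, adjusted p = 0.0196). The share of MSTRG.12999.3 was 20.02% and 17.6% in drought and 9.55% and 8.22% in well-watered leaf, 9.94 points apart in the mean with no overlap, and its log2 odds change of 1.25 (standard error 0.14) had an adjusted p of 0.123. With predicted-mRNA totals or column totals as the scale both level calls were lost (adjusted p of 0.153 to 0.867), and likewise with no trend in the spread (0.170 and 0.179).

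**Figure D4:**
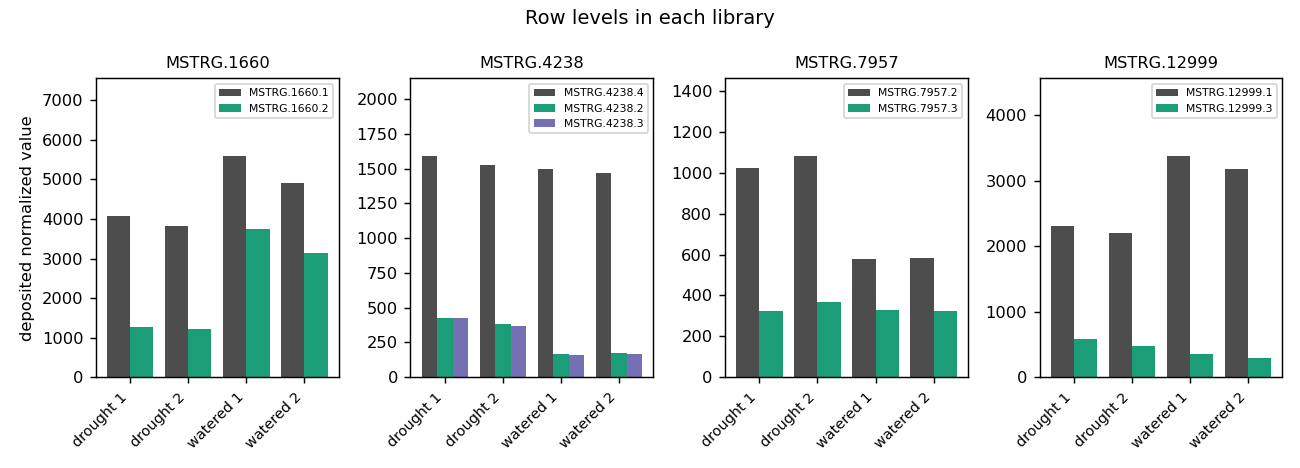
Deposited normalized value (vertical, from 0) of each row in drought libraries 1 and 2 and well-watered libraries 1 and 2 at MSTRG.1660, MSTRG.4238, MSTRG.7957 and MSTRG.12999, with the leading row first. In MSTRG.4238 the minor rows are higher in drought and the leading row is close to level, in MSTRG.1660 both rows are lower in drought, and in MSTRG.12999 the rows differ in opposite directions.

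The other 13 loci had moves of 5.09 to 9.93 points. In MSTRG.6040, MSTRG.5871, MSTRG.2990, MSTRG.13884, MSTRG.14524, MSTRG.13709, MSTRG.2019 and MSTRG.9740 the leading row had the lower share in both drought libraries. MSTRG.5871.1, for example, held 76.1% and 71.6% in drought against 82.9% and 84.3% in well-watered leaf (adjusted p = 0.208, limma). In MSTRG.6500, MSTRG.12958, MSTRG.10040, MSTRG.7815 and MSTRG.1125 it had the higher share. MSTRG.10040.1 held 59.9% and 57.0% in drought against 51.04% and 52.1% in well-watered leaf (adjusted p = 0.208). MSTRG.12958 has 4 rows, and MSTRG.12958.2 took 38.2% and 35.3% in drought against 29.2% and 29.5%, with each of the other 3 rows lower in share in both drought libraries. Its summed value fell 2.48-fold, to 1114 and 1251 in drought against 3293 and 2605 in well-watered leaf (adjusted p = 0.00133). Over all 20 loci with a move of 5 points or more, called or not, the leading row had the higher share in drought in 8 and the lower in 12. MSTRG.6500 is among the 8 and MSTRG.6040 among the 12. Over all 396 loci the split was 193 and 203, which is close to even.

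**Figure D5:**
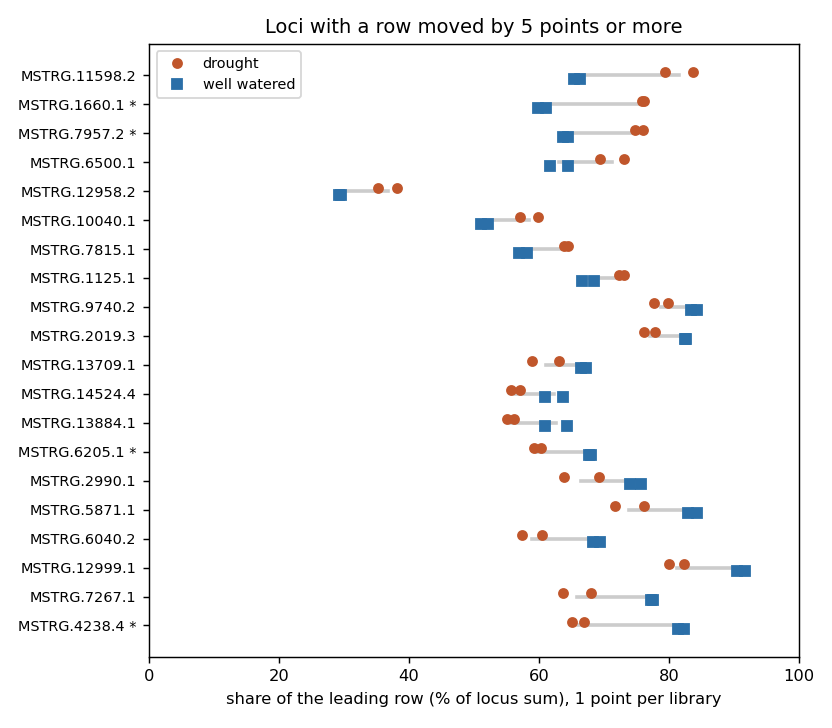
Share of the leading row (horizontal, % of the locus sum) in each library at the 20 loci where a row moved by 5 points or more, with drought points above well-watered points on each line, a grey bar between the group means, and a star on the 4 loci past the threshold. The leading row is higher in drought in the upper 8 loci and lower in the other 12, with no overlap between groups in any. The loci were picked by the size of a difference between the groups, which favours such separation. MSTRG.6040 and MSTRG.6500 each hold a row that reached the level band through a single group.

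More loci were called for the level of a row than for its share, in a fit with its own estimate of the spread. The fits differ in power, with 5.96 prior degrees of freedom in limma for levels and 0.914 for shares. The counts therefore do not show whether level or balance changed more. All 926 rows had values high enough for the test of level, limma on log2(value + 1) over all 28254 tested rows of the files. Of the members, 108 (11.7%) were higher and 95 (10.3%) lower in drought at an adjusted p under 0.05. The background was 4.62% higher and 5.19% lower over all tested rows, and 6.42% and 6.58% over the 16103 tested rows in the same level band. Leaving out the 24 rows that reached the mean of 100 through one group only, 104 were higher and 87 lower of 902. Because the rows of a locus can share reads, these rows are not separate observations. Taken as 1 sum for each locus, 53 loci (13.4%) rose and 37 (9.32%) fell, against 4.52% and 5.12% of all rows and sums tested in that fit. That background takes in low rows, while the lowest mean sum of a member locus was 239.5. No background in the level band was computed for sums, and for rows it was the higher 6.42% and 6.58%. Without the loci that hold a row with a mean under 100 in a group, 50 sums rose and 30 fell of 380. The median log2 fold change of the locus sums was 0.08, while the median over all tested rows in the fit of levels was 6.23e-05. Fewer cells of a type and less RNA per cell cannot be told apart in such bulk leaf samples.

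A row was called in 94 loci. All rows were called the same way in 75 of these, 40 higher and 35 lower, some rows and not others in 18, and rows in both directions in MSTRG.12999. Rows with nearly the same values have to be called alike. With rows within 2% of each other counted once, 310 loci remained, and 80 had a called row: all rows the same way in 61, some rows in 18 and both directions in 1. Changes of at least 2-fold in the sum were found in 14 loci that rose and 19 that fell. No background share was computed for this cut or for the 94 loci with a called row. These counts therefore do not tell whether the members differ from the rest of the data. The locus counts in this paragraph take in the loci that hold a row with a mean under 100 in a group. The surplus of rising over falling sums, 53 against 37, depends on the settings. Tested against a minimum of 1.5-fold, 8 loci rose and 14 fell, and with column totals as the scale 12 rose and 17 fell. The rows themselves, 108 higher and 95 lower, numbered 33 and 40 with column totals as the scale, and 9 and 32 where the spread had no trend.

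Some of the loci with the largest differences in level, picked after their values were seen, entered through one group only, and for these the values are a description with no test. MSTRG.513 had sums of 78 and 79 in drought against 984 and 846 in well-watered leaf, and its row MSTRG.513.1 held 50% and 50.6% in drought and 50.3% and 50.2% in well-watered leaf. MSTRG.6023 had 1568 and 3035 in drought against 237 and 148 in well-watered leaf, and MSTRG.6023.1 held 50% and 50.05% in drought against 50.6% and 50% in well-watered leaf. The rows of MSTRG.513 and of MSTRG.6023 are nearly identical in value, so their shares near 50% would stay there if the rows hold the same reads. MSTRG.1517, with 6 rows of which only MSTRG.1517.12 had a mean under 100 in a group, fell 7.23-fold, to 1950 and 1677 in drought against 12986 and 13185 in well-watered leaf. Its sum takes in MSTRG.1517.12, which entered through well-watered leaf only, so this fall is also a description with no test. Its rows are less alike. MSTRG.1517.4 moved by 1.93 points, more than in most loci, with 12.9% and 10.3% in drought against 9.62% and 9.69% in well-watered leaf (adjusted p = 0.606, limma). The other rows moved by less than 0.5 points, with MSTRG.1517.6 at 24.8% and 25.04% of the sum in drought and 25.4% and 25.1% in well-watered leaf, and MSTRG.1517.12 at 4.77% and 5.55% against 5.40% and 5.62%.

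MSTRG.11146 had almost no reads in well-watered leaf. Its row MSTRG.11146.5 had 293 and 457 in drought against 0 and 3 in well-watered leaf, and MSTRG.11146.7 had 280 and 447 against 0 and 2. Both rows reached the mean of 100 through drought alone, so this difference is a description with no test. The rows were nearly even in drought, at 51.1% and 50.6% for MSTRG.11146.5, and the few reads in well-watered leaf give no usable share. MSTRG.11146.5 has the same 4 values as 4 predicted mRNAs, among them XM_010109141.2.

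The loci with the most rows and those with the highest sums showed little movement in share, apart from the small call in MSTRG.3915. MSTRG.462 had 8 rows, of which MSTRG.462.11 moved most, with 6.86% and 8.20% of the sum in drought against 7.15% and 6.22% in well-watered leaf, so the groups overlapped. Its adjusted p was 0.761 (limma), and the sum of the locus did not pass either (adjusted p = 0.756). MSTRG.5912 had 7 rows. Its leading row MSTRG.5912.1 held 18.1% and 19.3% in drought against 17.8% and 17.9% (adjusted p = 0.639), and MSTRG.5912.7 held 8.51% and 7.43% against 8.89% and 8.95% (adjusted p = 0.569). Both pairs were separated by less than 1 point in the mean.

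Among the most abundant loci, MSTRG.1012 rose 1.73-fold in sum (log2 fold change 0.79, standard error 0.16, adjusted p = 0.0206, limma). Its 3 rows were nearly alike, and MSTRG.1012.4 held 33.4% of the sum in every library. MSTRG.1012.4 had 88050 and 93692 in drought against 57008 and 48370 in well-watered leaf, and MSTRG.1012.1 had 88041 and 93680 against 57014 and 48376. This was the only locus whose leading row differed between the treatments, MSTRG.1012.4 in both drought libraries and MSTRG.1012.1 in both well-watered libraries. The difference was 9 and 12 in drought and 6 and 6 the other way in well-watered leaf, and the share of MSTRG.1012.4 had an adjusted p of 0.967. Where a margin of 5 points was required, the leading row differed in 0 of the loci. MSTRG.7735 had 3 rows at 32.7% to 33.8% in all libraries, with MSTRG.7735.1 at 33.2% and 33.7% in drought and 32.8% and 32.7% in well-watered leaf (adjusted p = 0.433). MSTRG.4260 had 2 rows with the same values in all libraries but drought library 2, where they were 95732 and 95730.

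The calls lay mostly among the loci with higher sums. In 4 bins of near-equal size by mean sum, the lowest bin began at 239.5 and held 0 of the 6 calls, and the others, from 708, 1281 and 2399, held 1, 2 and 3. Moves of 5 points or more were spread differently, with 3, 5, 9 and 3 loci from the lowest bin to the highest.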

How the data were processed

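Leaf RNA of 2 drought and 2 well-watered samples was sequenced, and the groups were taken from the treatment labels. Replicate numbers follow the order of deposition and only name samples. The tools named in the submitters' processing notes are bcl2fastq 2.20, HISAT2 and featureCounts. Not given in the sources used here are the build, the annotation, settings, strand use and the way values were normalized. Per the file headers, each deposited value is a normalized score, and all are whole numbers. Their spacing resembles that of rounded counts scaled by a single factor in each library, with an estimated step of 1.11 and 0.84 in drought libraries 1 and 2 and 1.222 and 0.86 in well-watered libraries 1 and 2. Since they are not raw counts, no count model was fitted.

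Shares and sums were computed from the kept rows with pandas 2.3.3 in Python 3.11.15. Tests used limma 3.58.1 (R 4.3.3), with all 4 libraries and no covariate, drought minus well watered. Shares were tested as log2 odds with a pseudocount of 1 and a trend of the spread on the mean log2 of the smaller of row and rest (2 residual and 0.914 prior degrees of freedom). Levels and locus sums were tested as log2(value + 1) over all rows that reached 10 in at least 2 libraries, 28254 rows for levels and 27725 rows and sums where each member locus was replaced by its sum. Such fold changes understate those of low rows. The adjusted p threshold was 0.05, by the Benjamini-Hochberg method over all rows of each fit. Fits were also run on simulated data in which the rows of a locus shared no reads. Those runs cannot show how the share test behaves where rows do share reads.

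Loci named by rule are those with a changed share, those whose leading row differed, the 3 with the most rows and the 3 with the highest sum. Members and rules were chosen with earlier results of these data known. Product and marker lists could not be matched to identifiers and were not used. Alternatives were other scales, pseudocounts, level bands, row sets, spread estimates, tests and leaving out each library.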

Additional observations from a re-analysis of the deposited data

How the results depend on the processing

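Loci with a changed share numbered 6. Their number was 5 to 7 with the arcsine scale, other pseudocounts, other minimum means, near-identical rows or mirrored rows (an alternative chosen after seeing the data) counted once, and Simes' p. It was 2 with no upper limit on the mean, 1 with every row kept, 1 with diffSplice, and 0 when 1.5-fold was the minimum tested, with a robust spread, with no trend and without any 1 library (0 to 0); unadjusted, 81 to 159 rows passed when 1 library was left out. Leaving out a library leaves 1 against 2, too few to judge a call by. The cause of the other changes was not tested. Where the number stayed at 5 to 7, the rows that passed were not always the same. MSTRG.3915.5 did not pass on the arcsine scale, and MSTRG.7392.4 did not with near-identical rows counted once.

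Member rows higher and lower in drought numbered 108 and 95, and locus sums 53 and 37. With predicted-mRNA totals as the scale they were 80 and 62, and 34 and 26. With column totals they were 33 and 40, and 12 and 17. With no filter on low values they were 4 and 15, and 3 and 6. With no trend they were 9 and 32, and 3 and 10. Against a minimum of 1.5-fold they were 15 and 38, and 8 and 14. Without any 1 library they were 0 and 0 rows, and 0 and 0 to 1 sums. For these level and sum counts a background share was computed in the main fit only. Column totals were 4773539793 and 2910603473 in drought libraries 1 and 2, where predicted-mRNA rows summed to 15683648 and 11174504. The column-total scale is thus set almost wholly by rows other than predicted mRNAs. The leading row differed in 1 locus, and in 0 with near-identical rows counted once or a margin of 5 points.

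Among the named rows, signs reversed, or the value reached 0, only when a library was left out. The log2 odds change then ranged from -3.7e-06 to 0.000752 for MSTRG.1012.4, from -0.026 to 0.011 for MSTRG.462.5 and from 0 to 3.01e-05 for MSTRG.4260.1. The log2 fold change in level ranged from -0.133 to 0.0303 for MSTRG.7392.6 and from -0.0043 to 0.17 for MSTRG.7957.3. None of these had passed.

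No paired analysis was possible because no label numbers or pairs the samples. With 2 libraries a group, groups of this size cannot show an outlying library, and low loci have imprecise shares.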
